A study of Homo sapiens with 6 samples.

Results

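The S phase and DNA replication genes are a module of 41 human genes, whose transcripts are made mainly while cells prepare for and carry out DNA replication. The members came as a list of gene symbols, with no threshold on measured values, but the list was proposed with earlier results of these data known. Transcripts of 40 of the 41 genes were matched by identifier, and all 40 were among the 18514 genes tested of 52992 genes with matched transcripts. UHRF1 was not matched and has no value here.

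Before S phase, the MCM2-7 helicase is loaded onto replication origins by ORC, CDC6 and CDT1, a step known as licensing, and geminin (GMNN) blocks CDT1 so that origins are not licensed again. CDC45 and the GINS complex then turn the loaded helicase on, DNA polymerase alpha with primase starts each strand, and the PCNA clamp, placed by replication factor C, holds the polymerases on DNA. Many of these genes are transcribed under control of E2F factors, which the retinoblastoma proteins hold in check until cells commit to division. In a culture of dividing leukemia cells, part of the population is in S phase at any time.

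RNA-seq was performed on NB4, an established human acute promyelocytic leukemia cell line, in 6 samples of 3 groups with 2 replicates each (E1 and E2). Cas9 and an sgRNA (small guide RNA) induced by doxycycline were present in all cells, and all received 1 µg/ml doxycycline for 7 days, followed, per the study's methods, by further culture without doxycycline before RNA was isolated. LacZ cells carried a control sgRNA against the bacterial lacZ gene and are labelled WT. The sg1 and sg5 cells carried different sgRNAs against ARID1A, a DNA-binding component of SWI/SNF, which moves nucleosomes, and both are labelled ARID1A-deficient. Nothing describes these cultures as clones, the RNA does not tell edited from unedited cells, and nothing states that the replicates were separate cultures, so p-values measure the spread between these samples only.

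Promoters of the members were searched for E2F-type words. Many genes of this kind are under E2F control, so such words are no independent support for the list. RefSeq promoter windows (GRCh38.p14, 250 bases before to 50 bases after the start) were found for 31 of the 40 matched members, and 18 of the 31 (58.1%) held at least 1 of the E2F-type words TTTCCCGC, TTTCGCGC, TTTGCCGC and TTTGGCGC on either strand, against 3.99% of 27305 genes. By role, a word was found in 4 of 4 origin licensing genes with a window, 3 of 4 of helicase activation and fork support, 5 of 8 of chromatin and histone supply, 2 of 5 of DNA synthesis, 2 of 6 of DNA repair, 1 of 3 of nucleotide supply and 1 of 1 of cell cycle regulation. The windows of the 3 genes with the smallest p-values in ARID1A-deficient against LacZ samples, GMNN (chr6:24775163-24775462, plus strand), CDC6 (chr17:40287629-40287928, plus strand) and DTL (chr1:212035498-212035797, plus strand), are shown with those of PCNA (chr20:5126573-5126872, minus strand), the most abundant member, and MCM6 (chr2:135876394-135876693, minus strand), whose levels varied little. GMNN and PCNA had 2 windows each, and the window that held a word is shown. Capitals mark the words in either orientation.
GMNN: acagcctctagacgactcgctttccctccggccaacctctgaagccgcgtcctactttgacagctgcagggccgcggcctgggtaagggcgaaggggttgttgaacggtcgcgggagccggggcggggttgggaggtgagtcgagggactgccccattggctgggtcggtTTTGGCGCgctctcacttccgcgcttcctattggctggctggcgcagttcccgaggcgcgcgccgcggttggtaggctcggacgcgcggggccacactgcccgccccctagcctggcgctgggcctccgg
CDC6: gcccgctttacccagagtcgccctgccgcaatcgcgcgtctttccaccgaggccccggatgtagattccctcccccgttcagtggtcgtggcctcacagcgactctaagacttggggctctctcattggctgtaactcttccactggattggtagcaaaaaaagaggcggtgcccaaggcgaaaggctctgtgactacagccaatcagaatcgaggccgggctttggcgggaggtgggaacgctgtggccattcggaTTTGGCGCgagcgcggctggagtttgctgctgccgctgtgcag
DTL: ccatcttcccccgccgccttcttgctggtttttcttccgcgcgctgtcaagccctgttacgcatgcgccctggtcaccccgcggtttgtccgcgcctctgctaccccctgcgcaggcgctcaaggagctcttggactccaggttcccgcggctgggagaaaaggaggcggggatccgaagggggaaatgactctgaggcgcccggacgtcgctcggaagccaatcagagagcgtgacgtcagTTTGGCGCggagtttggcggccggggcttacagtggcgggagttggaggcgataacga
PCNA: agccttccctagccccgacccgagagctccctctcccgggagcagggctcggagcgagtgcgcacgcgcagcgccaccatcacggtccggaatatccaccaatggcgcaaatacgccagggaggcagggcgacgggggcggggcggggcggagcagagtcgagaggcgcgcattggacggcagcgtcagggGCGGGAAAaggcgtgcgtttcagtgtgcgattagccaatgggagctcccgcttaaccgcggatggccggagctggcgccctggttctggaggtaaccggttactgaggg
MCM6: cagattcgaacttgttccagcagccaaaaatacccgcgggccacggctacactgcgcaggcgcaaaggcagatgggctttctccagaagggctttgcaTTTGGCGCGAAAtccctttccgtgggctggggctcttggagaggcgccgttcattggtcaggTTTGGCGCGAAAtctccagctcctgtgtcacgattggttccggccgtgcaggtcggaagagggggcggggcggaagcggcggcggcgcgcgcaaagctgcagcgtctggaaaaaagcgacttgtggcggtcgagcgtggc
GMNN, CDC6 and DTL shared the word TTTGGCGC, which began 80 bases before, 8 bases after and 8 bases before the start. PCNA held TTTCCCGC in reverse orientation. MCM6 held 4 words in 2 stretches in which a forward TTTGGCGC and a reverse TTTCGCGC overlapped. These 5 genes were picked partly by their p-values and ranges, so they cannot show how the number of words goes with the difference. Across members with a window, the median log2 fold change in ARID1A-deficient against LacZ samples was 0.23 in the 18 with a word and 0.21 in the 13 without. A match of these letters is a description and not a measured binding site.

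Sequencing depth was 46131178 to 54843745 estimated counts per sample. The first principal component of log2 CPM (counts scaled to library size) held 34.4% of the variance. On it, sg1 E1 (34.3) and sg5 E2 (46.8) stood apart from the other 4 samples (-30.3 to -11.3). These 2 samples also had the largest total counts, 54490092 and 54843745, but LacZ E1, with 53712098 counts, lay at -24.4. A link between depth and this division was not tested. No label gives a batch that matches this division. ARID1A mRNA was at 155 and 191 CPM in LacZ, 211 and 191 CPM in sg1, and 124 and 145 CPM in sg5, and was not called in any comparison. Small Cas9 deletions need not lower mRNA, so this level does not check the labels. Of the promyelocyte markers, MPO stood at 13431 to 16825 CPM and PRTN3, AZU1, CTSG and CD33 were present, whereas ELANE was near 0 (0.02 to 0.17 CPM). The 5 tested promyelocyte markers all had negative log2 fold changes, with medians of -0.17 in sg1, -0.36 in sg5 and -0.21 joined. None of them was called by edgeR (2 in each comparison with LacZ at an unadjusted p under 0.05), while DESeq2 called CTSG and AZU1 in sg5 and in the joined comparison. CTSG was at 90.7 to 92.9 CPM in LacZ and 57.0 to 70.6 CPM in ARID1A-deficient samples, AZU1 at 215 to 217 and 160 to 179.5 CPM, and the summed list at 15669 to 17709 and 14024 to 16311 CPM. The 5 erythroid markers were at or near 0. Of the 5 lymphoid markers, CD3E and MS4A1 were at or near 0, while the summed level of the list was 10.6 to 12.6 CPM in LacZ and 16.2 to 18.5 CPM in ARID1A-deficient samples, mostly through CD79A (4.62 to 6.21 against 9.16 to 10.9 CPM). Of the 3 tested lymphoid markers, DESeq2 called 1 in sg1, 1 in sg5 and 1 in the joined comparison, and edgeR called 0. Of all genes, DESeq2 called 0.627%, 1.09% and 1.43%. The part of these marker differences in the results below was not tested.

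In TPM, the authors' abundance scaled by transcript length and depth, the members spanned a wide range of levels in LacZ cells. PCNA was the most abundant at 334 ± 32.6 TPM (SD, n = 2), followed by MCM4, a helicase subunit, at 313 ± 6.94 TPM and the histone chaperone NASP at 253 ± 3.15 TPM. Thymidylate synthase (TYMS) stood at 230.0 ± 9.24 TPM. The difference between PCNA and MCM4 lay within the spread of PCNA. The helicase BRIP1 (6.24 ± 0.735 TPM) and cyclin E2 (CCNE2, 7.79 ± 0.323 TPM) were the lowest. The median member was at 34.0 TPM, and 10 of 40 were above 100 TPM. Summed over the members, TPM was 3080 and 3078 for the LacZ samples, 3714 and 3187 for sg1 and 3293 and 3878 for sg5, so all ARID1A-deficient samples were above both LacZ samples, with sg1 E1 and sg5 E2 highest. In bulk RNA, a larger share of cells in S phase and more of these transcripts per cell cannot be told apart.

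No member passed an FDR of 0.1 in edgeR's quasi-likelihood test in sg1 against LacZ, sg5 against LacZ, both sgRNAs against LacZ or sg1 against sg5. Of all genes tested, 0.0378%, 0.0972%, 0.167% and 0.0054% passed in these 4 comparisons. At an unadjusted p under 0.05, edgeR gave 0, 11, 7 and 0 members, all of them higher in ARID1A-deficient cells, against 1.86%, 2.95%, 2.89% and 0.972% of all genes called in the upper direction. DESeq2 also called 0 members in each comparison at that FDR (0.627%, 1.09%, 1.43% and 0.027% of all genes) and gave 0, 14, 8 and 0 at an unadjusted p under 0.05, all higher (1.69%, 3.14%, 2.99% and 0.664% of all genes). When edgeR was run without the low-count filter, 0, 3, 3 and 0 members passed, in both cases GMNN, PCNA and FEN1, while 1.05%, 1.92%, 2.13% and 0.261% of all genes did. The lowest adjusted p of any member in edgeR was 0.993, 0.608, 0.581 and 1.00. The differences were small and pointed mostly the same way. The median log2 fold change of the 40 members was 0.18 in sg1, 0.27 in sg5 and 0.23 in both sgRNAs joined, while the medians of all genes tested were 0.00, -0.01 and -0.01. Positive values were found in 37 of 40 members in sg1 (50.3% of all genes), 39 in sg5 (48.6%) and 39 in the joined comparison (48.7%). The sg1 and sg5 comparisons share the LacZ samples, so their like signs are not independent of each other. All 4 ARID1A-deficient samples lay above both LacZ samples in 18 of 40 members (45.0%), against 9.72% of all genes, and below both in 0 of 40, against 10.4% of all genes.

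**Figure D1:**
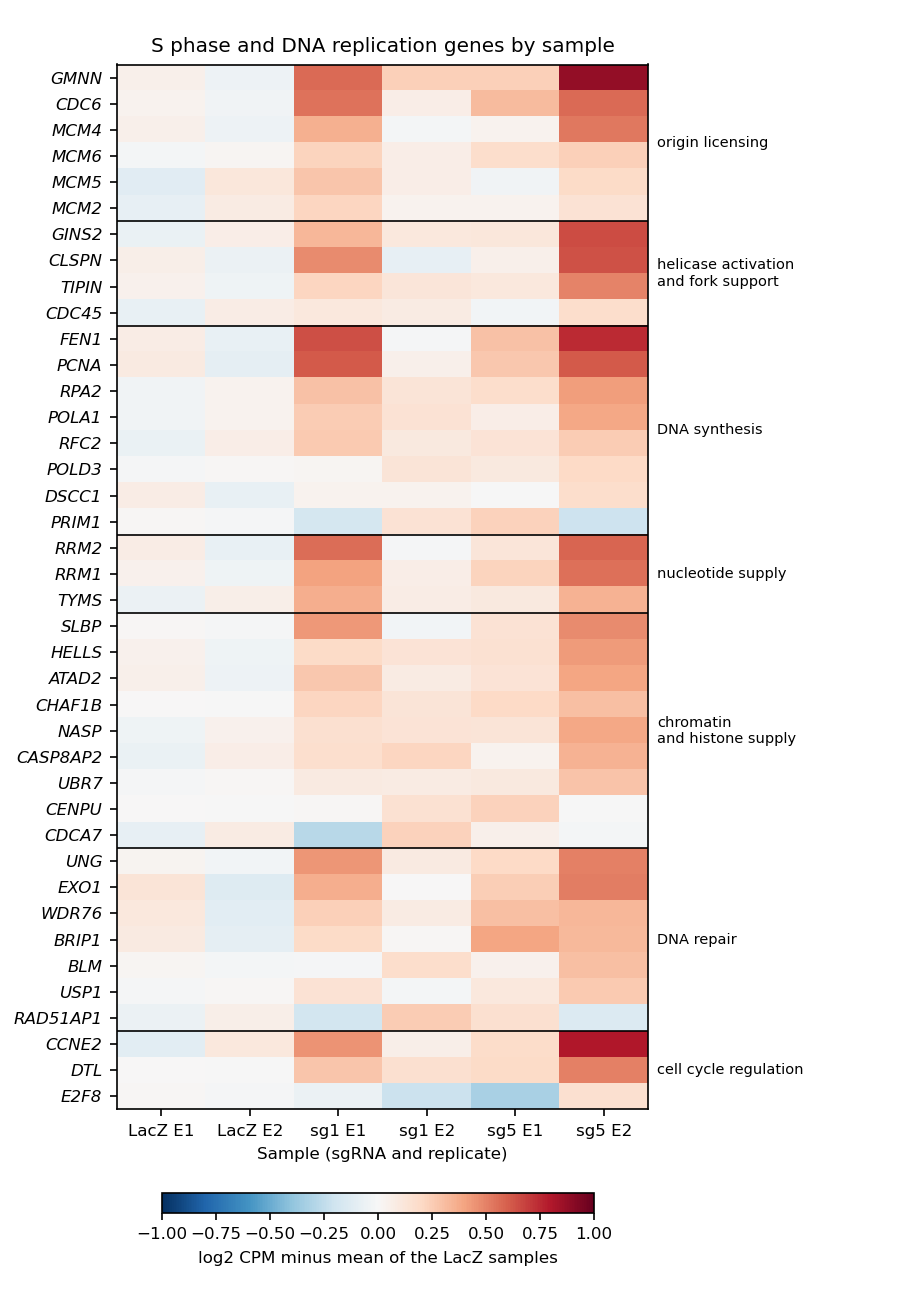
Level of each of the 40 members (rows, grouped by role) in each of the 6 samples (columns), as log2 CPM minus the mean of the LacZ samples; red is above and blue is below that mean. The columns of sg1 E1 and sg5 E2 are the reddest, with medians of 0.25 and 0.37, while sg1 E2 and sg5 E1 have medians of 0.08 and 0.14.

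Of the 6 origin licensing genes, all had a positive log2 fold change with either sgRNA, with a median of 0.17 in sg1 and 0.25 in sg5, and none was called. GMNN, the inhibitor of licensing, had the largest difference of all members. It was at 48.4 and 45.3 CPM in LacZ, 69.2 and 55.3 CPM in sg1, and 55.4 and 86.1 CPM in sg5. All 4 ARID1A-deficient samples were above both LacZ samples, sg5 E2 by the most. The log2 fold change of GMNN was 0.41 ± 0.20 (SE) in sg1, 0.59 ± 0.20 in sg5 and 0.50 ± 0.18 in both joined (edgeR adjusted p = 0.993, 0.608 and 0.581). CDC6, which loads the MCM helicase with CDT1, was at 55.0 and 52.4 CPM in LacZ, 78.1 and 56.3 CPM in sg1, and 66.8 and 79.4 CPM in sg5. Here too the groups did not overlap, although sg1 E2 lay just above the higher LacZ sample. Its joined log2 fold change was 0.39 ± 0.15 (SE, edgeR adjusted p = 0.623). MCM4 was at 512 and 478 CPM in LacZ, 634 and 488 CPM in sg1, and 507 and 711 CPM in sg5, so that sg1 E2 and sg5 E1 fell within the LacZ range while sg1 E1 and sg5 E2 stood well above it. MCM6, in the same helicase ring, had among the narrowest ranges over the ARID1A-deficient samples, with 303 and 310 CPM in LacZ, 358 and 321 CPM in sg1, and 346 and 362 CPM in sg5. MCM2 and MCM5 had joined log2 fold changes of 0.11 and 0.12, and at least 1 ARID1A-deficient sample of each lay within the LacZ range.

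The 4 genes of helicase activation and fork support had median log2 fold changes of 0.19 in sg1 and 0.34 in sg5. CDC45, the most abundant of them, was at 69.6 and 77.3 CPM in LacZ, 78.7 and 77.7 CPM in sg1, and 72.1 and 82.8 CPM in sg5. The groups overlapped, and its joined log2 fold change was 0.08 ± 0.10 (SE, edgeR adjusted p = 0.853). GINS2, a GINS subunit, and CLSPN, the checkpoint mediator claspin, had larger joined values of 0.32 and 0.30. In CLSPN the difference lay in sg1 E1 (41.1 CPM) and sg5 E2 (46.0 CPM), whereas sg1 E2 and sg5 E1 (27.9 and 30.7 CPM) did not exceed the higher LacZ sample (30.9 CPM). TIPIN, a partner of TIMELESS at the fork, had a joined value of 0.24.

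Among the 8 DNA synthesis genes, 7 had positive values in sg1 and 8 in sg5. PCNA was at 330.1 and 293 CPM in LacZ, 477 and 323 CPM in sg1, and 374 and 475 CPM in sg5. The sg1 E2 value fell between the LacZ samples, and the other 3 ARID1A-deficient samples were above both. The joined log2 fold change of PCNA was 0.40 ± 0.17 (SE, edgeR adjusted p = 0.683). FEN1, the nuclease that trims Okazaki fragments, had the widest range of all members over the ARID1A-deficient samples. It was at 134 and 121 CPM in LacZ, 199.5 and 126 CPM in sg1, and 156 and 213 CPM in sg5, with a joined log2 fold change of 0.44 ± 0.20 (SE, edgeR adjusted p = 0.700). FEN1 overlaps FADS2, a gene with more counts on the same strand, so reads may have been split between them. RPA2, which coats single-stranded DNA, was at 78.1 and 81.8 CPM in LacZ, 97.8 and 87.3 CPM in sg1, and 90.3 and 107 CPM in sg5. The groups did not overlap, and its joined log2 fold change was 0.26 ± 0.11 (SE, edgeR adjusted p = 0.680). RFC2, a clamp loader subunit, was at 95.8 and 105 CPM in LacZ, 120.0 and 107 CPM in sg1, and 110.3 and 119 CPM in sg5, a gap of little width between groups that did not overlap. PRIM1, the catalytic primase subunit, went against the others. It was at 39.1 and 38.6 CPM in LacZ, 34.4 and 43.0 CPM in sg1, and 45.5 and 33.5 CPM in sg5. Here sg1 E1 and sg5 E2 were the lowest samples and the remaining ARID1A-deficient samples the highest, and the joined log2 fold change was 0.01 ± 0.15 (SE, edgeR adjusted p = 0.993). PRIM1 overlaps the far more abundant NACA on the same strand. POLA1, POLD3 and DSCC1, which encode polymerase subunits and a subunit of an alternative clamp loader, had joined values between 0.06 and 0.22.

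**Figure D2:**
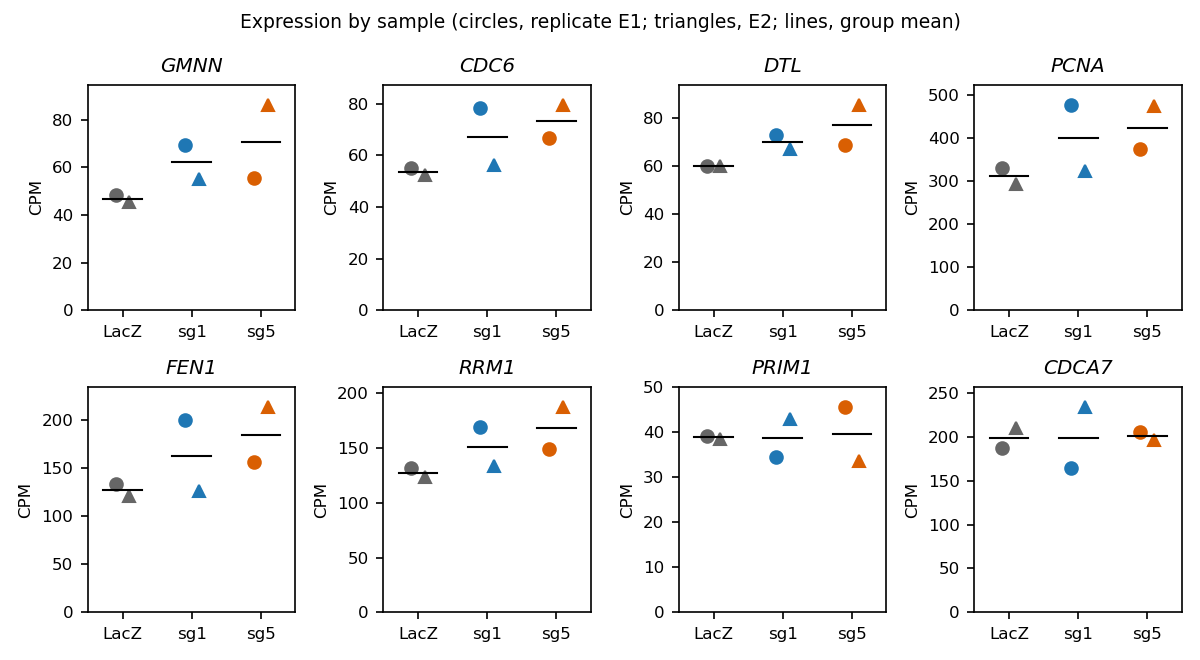
CPM of 8 members in each sample, with sgRNA on the horizontal axis, CPM from 0 on the vertical axis, circles for replicate E1, triangles for replicate E2 and lines for the mean of each group. In GMNN, CDC6, DTL, PCNA, FEN1 and RRM1 the sg1 circle and the sg5 triangle are the highest points, whereas in PRIM1 they are the lowest.

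The 3 genes of nucleotide supply had positive values with both sgRNAs. RRM1, the large subunit of ribonucleotide reductase, was at 131 and 124 CPM in LacZ, 168 and 133 CPM in sg1, and 149 and 187 CPM in sg5. The groups did not overlap, and the joined log2 fold change was 0.32 ± 0.14 (SE, edgeR adjusted p = 0.683). TYMS, which makes thymidylate, was at 244 and 266 CPM in LacZ, 328 and 268 CPM in sg1, and 273 and 325 CPM in sg5. Its groups also did not overlap, and the joined log2 fold change was 0.23 ± 0.13 (SE, edgeR adjusted p = 0.742). RRM2, the small reductase subunit whose level follows S phase, had a joined value of 0.34 ± 0.18, and its sg1 E2 level of 141 CPM lay between the LacZ samples (149 and 134 CPM).

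The 9 genes of chromatin and histone supply had median log2 fold changes of 0.16 in sg1 and 0.25 in sg5. NASP, which carries newly made histones, was at 279 and 295 CPM in LacZ, 321 and 314 CPM in sg1, and 314 and 375 CPM in sg5. Both groups of ARID1A-deficient samples lay above LacZ, and only sg5 E2 was far from the others. The joined log2 fold change of NASP was 0.21 ± 0.11 (SE, edgeR adjusted p = 0.742). CHAF1B, a subunit of the chromatin assembly factor that PCNA recruits, was at 33.5 CPM in both LacZ samples, 38.9 and 36.7 CPM in sg1, and 38.5 and 41.4 CPM in sg5. Its joined log2 fold change was 0.21 ± 0.10 (SE, edgeR adjusted p = 0.725), and it shares its locus and strand with MORC3. CDCA7, a partner of the HELLS remodeler, did not follow the rest of its group. It was at 187 and 210.2 CPM in LacZ, 164 and 233 CPM in sg1, and 205 and 196 CPM in sg5, so the sg1 replicates were the lowest and the highest of all samples and the joined log2 fold change was 0.01 ± 0.14 (SE, edgeR adjusted p = 0.996). Among the remaining members of this group, SLBP, which binds the ends of histone mRNAs, had the largest joined value (0.27) and CENPU, a kinetochore protein, the smallest (0.10).

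All 7 DNA repair members had positive values with either sgRNA. Of them, 0 had an unadjusted edgeR p under 0.05 in sg1, 4 in sg5 and 1 in the joined comparison. Of all genes, 1.86%, 2.95% and 2.89% had such a p in the upper direction (4.15%, 7.47% and 7.21% in either direction). UNG, which removes uracil from DNA, was at 134 and 129.9 CPM in LacZ, 179.5 and 141 CPM in sg1, and 152 and 187 CPM in sg5. The groups did not overlap, and the joined log2 fold change was 0.32 ± 0.13 (SE, edgeR adjusted p = 0.678). WDR76 was at 60.1 and 52.0 CPM in LacZ, 65.8 and 59.3 CPM in sg1, and 69.1 and 70.4 CPM in sg5. The sg1 E2 sample lay within the LacZ range, both sg5 samples were above it, and the joined log2 fold change was 0.24 ± 0.11 (SE, edgeR adjusted p = 0.698). EXO1, a nuclease of mismatch repair and end resection, and BRIP1, a helicase, had joined values of 0.28 and 0.23, and in BRIP1 the highest sample was sg5 E1. The helicase BLM, the deubiquitinase USP1 and RAD51AP1 had smaller values of 0.13, 0.12 and 0.04.

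Of the 3 cell cycle regulators, DTL and CCNE2 had positive values with either sgRNA and E2F8 negative values. DTL, the adaptor through which an E3 ligase destroys CDT1 on PCNA, was at 60.3 and 60.2 CPM in LacZ, 72.9 and 67.2 CPM in sg1, and 68.8 and 85.6 CPM in sg5. No ARID1A-deficient sample overlapped the LacZ samples, and the joined log2 fold change was 0.29 ± 0.11 (SE, edgeR adjusted p = 0.652). CCNE2 was at 8.43 and 9.78 CPM in LacZ, 12.4 and 9.45 CPM in sg1, and 10.3 and 15.8 CPM in sg5. The sg1 E2 sample lay within the LacZ range, and the joined log2 fold change was 0.39 ± 0.21 (SE, edgeR adjusted p = 0.742). E2F8, a repressor of E2F targets, was at 45.1 and 44.3 CPM in LacZ, 43.0 and 38.5 CPM in sg1, and 35.6 and 49.98 CPM in sg5. It was the member with the lowest joined log2 fold change, -0.10 ± 0.14 (SE, edgeR adjusted p = 0.876), with sg5 samples on either side of LacZ.

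**Figure D3:**
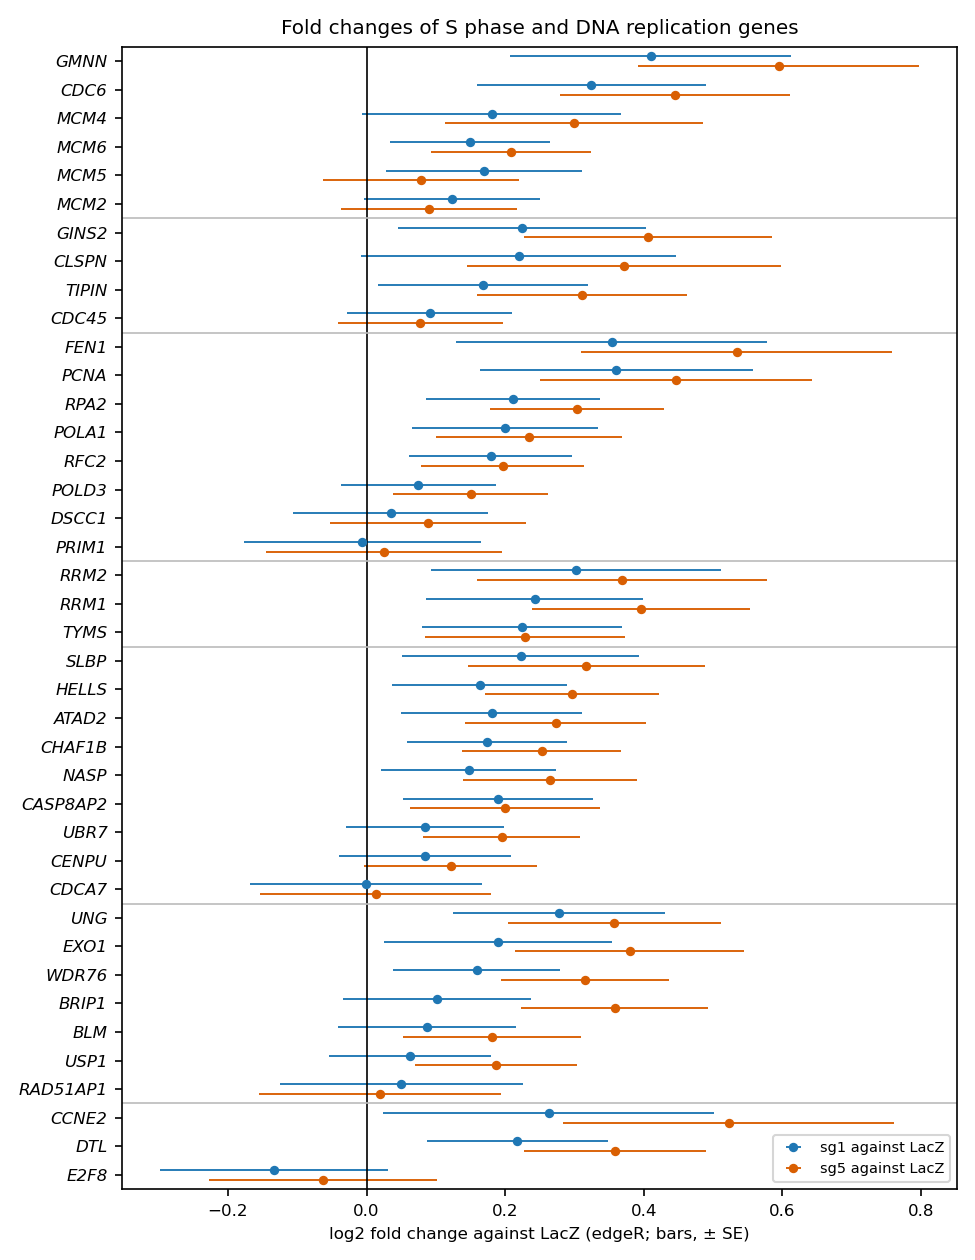
Log2 fold change against LacZ of the 40 members, grouped by role, with sg1 in blue and sg5 in orange; points are edgeR estimates and bars are ± 1 SE. Most points lie right of 0, with medians of 0.18 in sg1 and 0.27 in sg5, and none passed an FDR of 0.1.

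The sgRNAs were also compared directly. The median log2 difference of sg1 minus sg5 over the members was -0.09, against 0.00 over all genes, and 36 of 40 members were lower in sg1, whereas 49.5% of all genes were higher. The values ran from -0.26 to 0.09, no member passed an FDR of 0.1, and no member had an unadjusted p under 0.05. A difference between the sgRNAs in these genes was therefore not detected at this number of samples.

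Replicates of the same sgRNA differed from each other. The median deviation of the members from the LacZ mean, on the log2 CPM scale, was 0.25 in sg1 E1 but 0.08 in sg1 E2, and 0.37 in sg5 E2 but 0.14 in sg5 E1. In 28 of 40 members (70.0%), sg1 E1 and sg5 E2 were the highest 2 of the 6 samples, against 18.6% of all genes, and sg5 E2 alone was the highest sample in 30 members (75.0%), against 21.7% of all genes. Both exceeded sg1 E2 and sg5 E1 in 29 members (72.5%), against 25.0% of all genes. The reverse order was found in 4 members, PRIM1, CDCA7, RAD51AP1 and CENPU, against 27.7% of all genes. This division was seen in the data and is not a group of the study, so it was not tested, and its part in the results was not tested. When sg1 E1 and sg5 E2 were left out, the median log2 fold changes were 0.08 in sg1, 0.14 in sg5 and 0.12 joined, with positive values in 32, 36 and 38 of 40 members (50.9%, 48.8% and 49.3% of all genes). When sg1 E2 and sg5 E1 were left out instead, the medians were 0.25, 0.39 and 0.31, with positive values in 35, 37 and 37 members (47.3%, 47.7% and 46.4% of all genes). GMNN had joined values of 0.24 and 0.73 in these fits, FEN1 0.14 and 0.71, and PRIM1 0.19 and -0.18. The joined value was above 0 in both fits in 35 of 40 members.

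**Figure D4:**
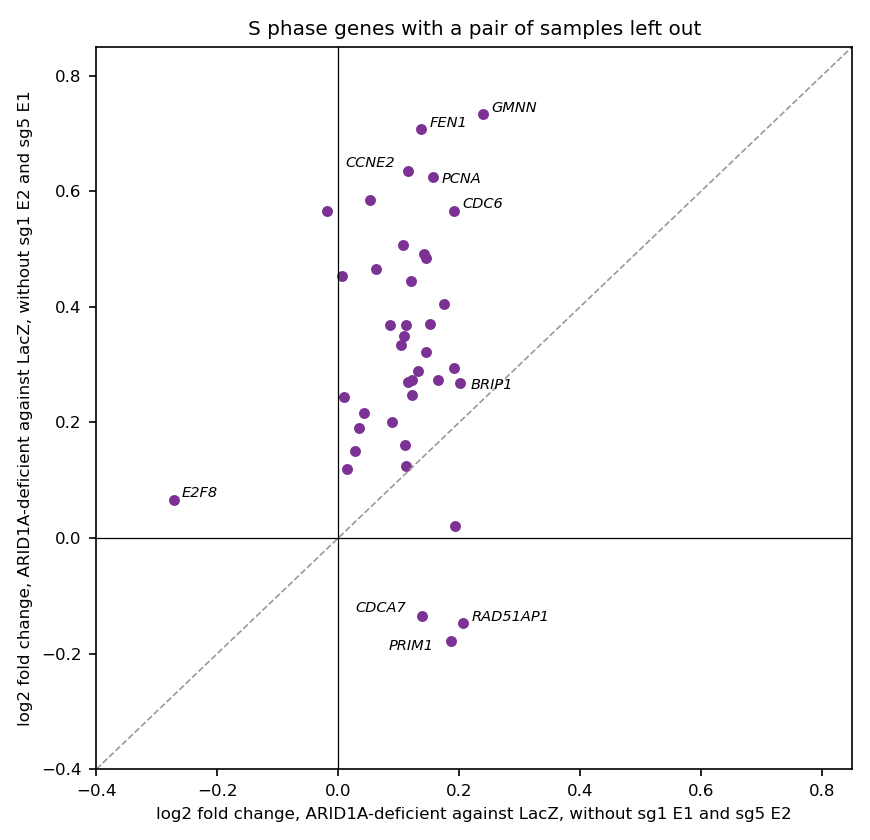
Joined log2 fold change against LacZ of the 40 members when sg1 E1 and sg5 E2 are left out (horizontal axis) and when sg1 E2 and sg5 E1 are left out (vertical axis); the dashed line marks equal values. Of 40 points, 36 lie above the line, and PRIM1, CDCA7 and RAD51AP1 are below 0 on the vertical axis only.

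Genes of neighbouring cell cycle steps were examined in the same way. Of 40 other replication factors, 0 were called by edgeR or DESeq2 in any comparison, 1, 7 and 4 had an unadjusted edgeR p under 0.05 in sg1, sg5 and the joined comparison, and the median log2 fold changes were 0.13, 0.21 and 0.16. All of these genes were higher. In the upper direction, 1.86%, 2.95% and 2.89% of all genes had such a p (4.15%, 7.47% and 7.21% in either direction). The count of 1 of 40 in sg1 lay near the upper-direction share. The counts in sg5 and in the joined comparison lay above it, although 4 joined genes are few. Values were positive in 37 of 40 genes in sg1, 36 in sg5 and 35 joined (50.3%, 48.6% and 48.7% of all genes). All 4 ARID1A-deficient samples lay above both LacZ samples in 32.5% of this list, against 9.72% of all genes. They lay below both in 0, against 10.4% of all genes. Of these factors, ORC1, a subunit of the origin recognition complex, had the smallest p-value. It was at 56.0 and 52.8 CPM in LacZ, 68.1 and 67.5 CPM in sg1, and 67.8 and 70.3 CPM in sg5, so all 4 ARID1A-deficient samples lay close together above LacZ, without the division seen in GMNN or FEN1. The joined log2 fold change of ORC1 was 0.33 ± 0.09 (SE, edgeR adjusted p = 0.389). GINS3 and RPA3, subunits of GINS and of replication protein A, had joined values of 0.30 and 0.25. CDT1, the target of geminin, was picked out after its values were seen, because it ran opposite to GMNN. It was at 383 and 399.6 CPM in LacZ, 283 and 404 CPM in sg1, and 381 and 219 CPM in sg5, so sg1 E1 and sg5 E2 were the lowest samples and the other ARID1A-deficient samples were close to LacZ (joined log2 fold change -0.29 ± 0.23, SE, edgeR adjusted p = 0.785).

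Of 23 tested G1/S regulators, 0 were called by edgeR or DESeq2. The median log2 fold changes were 0.10 in sg1, 0.12 in sg5 and 0.08 joined. An unadjusted edgeR p under 0.05 was found in 2, 3 and 3 genes, of which 1, 2 and 2 were higher and 1 was lower in each comparison. Smaller shares of all genes, 4.15%, 7.47% and 7.21%, had such a p in either direction, but the counts in this list are small. Of the 23 log2 fold changes, 16 were positive in sg1, 18 in sg5 and 17 joined, against 50.3%, 48.6% and 48.7% of all genes. By sign, this list therefore also leaned upward. By sample order it was less one-sided than the S phase members. All 4 ARID1A-deficient samples lay above both LacZ samples in 4 of its genes and below both in 3. Without sg1 E1 and sg5 E2 the joined median of the G1/S list was 0.01, with 12 of 23 values positive. E2F2, an activating E2F factor, was at 25.5 and 28.7 CPM in LacZ, 34.5 and 33.4 CPM in sg1, and 34.8 and 33.5 CPM in sg5, and the groups did not overlap (joined log2 fold change 0.33 ± 0.11, SE, edgeR adjusted p = 0.505). CCNE1, which encodes cyclin E1, had a joined value of 0.37 ± 0.15. CCND2, which encodes cyclin D2, was lower, at 133 and 120.2 CPM in LacZ against 95.8 and 112 CPM in sg1 and 107 and 96.6 CPM in sg5 (joined log2 fold change -0.30 ± 0.11, SE, edgeR adjusted p = 0.587). Of 53 tested G2/M genes, 0 were called by either tool, and the median log2 fold changes were 0.14, 0.22 and 0.17. An unadjusted edgeR p under 0.05 was found in 0, 2 and 2 genes (3.77% in sg5 and joined), all higher. In the upper direction, 2.95% of all genes in sg5 and 2.89% joined had such a p, near these shares. Values were positive in 50, 50 and 48 of 53 genes (50.3%, 48.6% and 48.7% of all genes). All 4 ARID1A-deficient samples lay above both LacZ samples in 26.4% of the list (9.72% of all genes) and below both in 0 (10.4%). The G2/M genes CKAP2, KIF20B and NUSAP1, which encode spindle proteins, had joined values of 0.26, 0.29 and 0.40. The G2/M list showed the division of samples more sharply than its distance from LacZ, with median deviations of 0.25 in sg1 E1 and 0.36 in sg5 E2 but 0.04 in sg1 E2 and 0.01 in sg5 E1. For the S phase members these were 0.25, 0.37, 0.08 and 0.14, and for all genes tested -0.01, -0.02, 0.01 and 0.00.

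**Figure D5:**
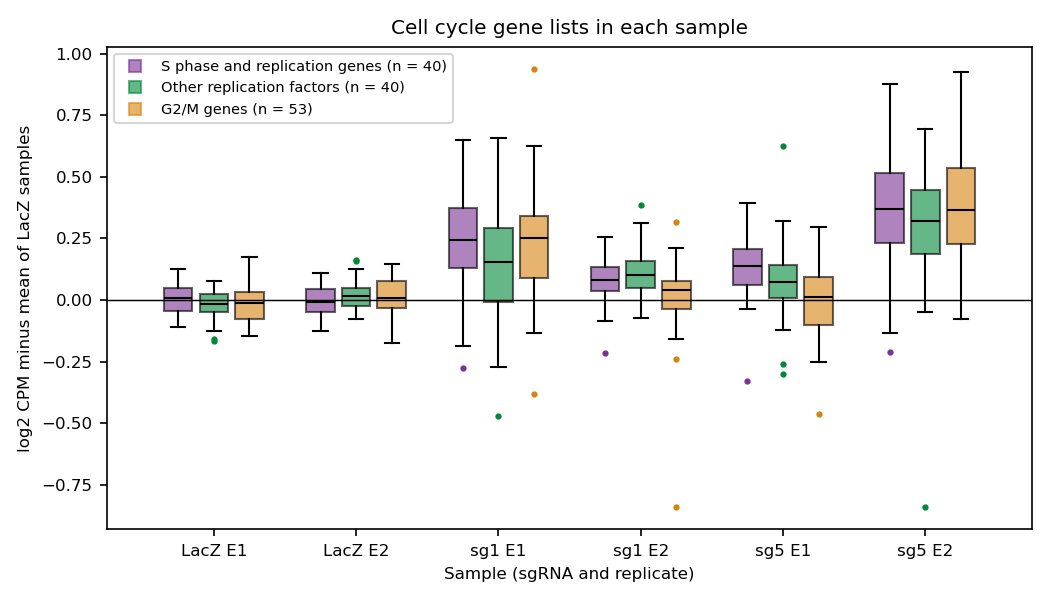
Log2 CPM minus the mean of the LacZ samples for 40 S phase and replication genes, 40 other replication factors and 53 G2/M genes in each sample (boxes, quartiles; line, median; whiskers, 1.5 times the interquartile range). The 3 lists are highest in sg1 E1 and sg5 E2, and in sg1 E2 and sg5 E1 the G2/M genes lie nearer 0 (0.04 and 0.01) than the S phase genes (0.08 and 0.14).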

How the data were processed

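RNA-seq of 6 NB4 samples was analysed. Per the submitters' processing notes, the authors used kallisto and DESeq2 and named build hg19. The authors deposited estimated counts, in which shared reads are split between transcripts, and TPM, scaled by effective length, for each of 196354 transcripts, with transcript lengths. The study's methods give a kallisto version only with a mouse transcript set, and the human transcript set is not given in the sources used here. Strandedness is not stated, so overlapping genes may share reads.

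Transcripts were matched to GENCODE 29 by identifier (181857, 92.6%, with 95.4% to 95.5% of the estimated counts), summed per gene and rounded. Coordinates are from GRCh38. Counts were tested with edgeR 4.0.16 (R 4.3.3), with TMM factors, a minimum count of 10 and a robust quasi-likelihood F-test in which group was the only term, and the Benjamini-Hochberg adjustment over 18514 genes. Genes under an FDR of 0.1 were called. SEs were derived from the F statistic. The joined comparison averages the sg1 and sg5 coefficients. Log2 CPM used a prior count of 2. DESeq2 1.42.0, DESeq2 size factors, no count filter, a length offset, a replicate block, only the groups compared, an FDR of 0.05 and left-out samples were alternatives. The scripts were tested on simulated data. Promoter sequences are from RefSeq, and 9 members had no window.

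The members, roles and lists were chosen with earlier results of these data known. Members were named with per-sample values if they were called, had 1 of the 10 smallest p-values or the 3 lowest log2 fold changes in the joined comparison, had the highest TPM of their role, or had 1 of the 2 widest or 2 narrowest ranges over the ARID1A-deficient samples. Of each other list, the 3 genes with the smallest p-values were named. Replicates were checked for pairing by the correlation of their deviations across genes.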

Additional observations from a re-analysis of the deposited data

Results flagged for a closer look

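In each of the 40 members, the 4 ARID1A-deficient samples were examined for 1 sample far from the rest, by dividing its distance to the nearest other sample by the whole range in log2 CPM. In 2 members this ratio exceeded the 95% critical value of Dixon's test for 4 samples, which chance exceeds in about 1 in 20 genes. In NASP the ratio was 0.877, with sg5 E2 at 375 CPM and the other ARID1A-deficient samples between 314 and 321 CPM. In UBR7, a histone ubiquitin ligase with a ratio of 0.930, sg5 E2 was at 67.1 CPM and the others were between 58.2 and 58.8 CPM.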

How the results depend on the processing

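The count of 0 called members held in the 4 comparisons with DESeq2, DESeq2 size factors, a length offset, the replicate block and an FDR of 0.05, and with only the groups compared in the 3 comparisons where that is another fit. Without the low-count filter, 3 members were called in sg5 and 3 in the joined comparison, in both GMNN, PCNA and FEN1, higher in ARID1A-deficient cells, when 1.92% and 2.13% of 32983 genes were called. Leaving out each replicate in turn left 1 sample in a group, so only effect sizes are given. With single replicates left out, the median log2 fold change of the members ran from 0.0756 to 0.25 in sg1 (lowest without sg1 replicate 1), from 0.13 to 0.39 in sg5 (lowest without sg5 replicate 2, highest without sg5 replicate 1) and from 0.15 to 0.29 joined. Without sg5 replicate 1, sg5 was represented by sg5 E2 alone, the highest sample in 30 members. GMNN was then 0.90 in sg5 and 0.65 joined. The medians were also computed with pairs of samples left out. The median of the members was 0.08 in sg1 and 0.14 in sg5 without sg1 E1 and sg5 E2, and 0.39 in sg5 without sg1 E2 and sg5 E1. The replicate block gave medians of 0.18, 0.27 and 0.23 and changed no call. Deviations of same-numbered samples correlated at 0.07 and 0.01 between LacZ and each sgRNA and at -0.21 between sg1 and sg5, so the numbers were not taken to pair the samples. A crossed block, chosen after seeing the data, also called 0 members. Single members changed sign as follows, and the cause was not tested. CDCA7 in sg1 was 8.24e-05 with DESeq2, 6.9e-05 with its size factors and 0.0015 with the length offset. CDCA7 in sg1 ran from -0.27 to 0.23 with replicates left out singly or in those pairs, and was 0.23 without sg1 E1 and sg5 E2. E2F8 in sg5 was 0.0207 with the length offset and 0.0175 with block and offset. With replicates left out singly or in those pairs, FEN1 in sg1 ran from -0.0209 to 0.66, MCM4 in sg1 from -0.0269 to 0.37, CDC45 in sg5 from -0.0325 to 0.19, E2F8 from -0.34 to 0.18 in sg5 and -0.27 to 0.0666 joined, CDCA7 from -0.0583 to 0.11 in sg5 and -0.14 to 0.14 joined, and PRIM1 from -0.17 to 0.15 in sg1, -0.19 to 0.23 in sg5 and -0.18 to 0.19 joined. Without sg1 E1 and sg5 E2, FEN1 (-0.01) and MCM4 (-0.02) in sg1, CDC45 in sg5 (-0.03) and PRIM1 in sg1 (0.15) changed sign. Without sg1 E2 and sg5 E1, E2F8 (0.18 in sg5, 0.0666 joined), CDCA7 (-0.0018 and -0.14) and PRIM1 (-0.19 and -0.18) did. Of the 20 named members, 16 in sg1, 16 in sg5 and 17 joined kept their sign throughout. With 2 replicates a group, no member could be told from the spread between samples at an FDR of 0.1, apart from the calls without the low-count filter.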

Other observations

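The promoter windows of the cell cycle lists differed in short words, counted on both strands. The box CCAAT, which NF-Y binds, was found in 23 of 31 members (74.2%) and 32 of 45 G2/M genes (71.1%), against 39.7% of all genes. The word TTTGAA, part of the CHR element of late cell cycle genes, was found in 4 of 31 members (12.9%) and 33 of 45 G2/M genes (73.3%), against 18.2% of all genes. The E2F-type words were found in 13 of 34 other replication factors (38.2%), 6 of 20 G1/S regulators (30.0%) and 3 of 45 G2/M genes (6.67%).

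The genes outside the module whose log2 CPM was most like that of GMNN over the 6 samples were POLE2, a subunit of DNA polymerase epsilon, with a Pearson r of 0.999, followed by ERCC6L (0.997), PDZD11 (0.996), DHX15 (0.995) and SMC2 (0.994), given as a description over 6 samples that share the division of sg1 E1 and sg5 E2 from the rest. POLE2 was at 18.8 and 17.8 CPM in LacZ, 25.0 and 20.4 CPM in sg1, and 20.7 and 29.6 CPM in sg5.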
